A study of Mus musculus with 4 samples.

Results

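The genes described here are 35 chaperones, co-chaperones and regulators of the heat shock and unfolded protein responses. They were taken by symbol from a fixed list, without use of their measured values, out of the 32285 genes counted in a single-cell RNA sequencing study of mouse ovary. All 35 symbols were found, in 36 rows, because Ddit3 is listed under 2 gene identifiers that were summed. The study compared 4 groups of prepubertal mice, treated from an age stated as postnatal day 25, with 1 library per group. The control group received PBS or saline. The doxorubicin group received 2 weekly doses of doxorubicin at 3 mg/kg, an anthracycline that damages DNA. The doxorubicin+AMH group received the same doxorubicin with recombinant human anti-Müllerian hormone (AMH) at 0.75 mg/kg, and the AMH group received that hormone alone. Ovaries were collected 4 hours after the last doxorubicin dose, and each library pools 5 animals, with 1 ovary taken per animal, dissociated with enzymes and by machine. Strain, genotype and route of dosing are not given in the sources used here. With 1 pooled library per group the spread between animals was not measured, so every difference below is between libraries, carries no test, and has no replicate check. The series title names the question, protection of the ovary by AMH through control of cell fate and of the reaction to DNA damage.

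Chaperones hold unfolded or newly made proteins and help them reach their folded form. In the cytosol, unfolded protein releases heat shock factor 1 (Hsf1) from chaperones, and the factor then binds heat shock elements in front of genes such as Hspa1a, Hspa1b, Hsph1, Hspb1 and Dnajb1. In the endoplasmic reticulum (ER), unfolded protein draws the chaperone BiP (Hspa5) away from the sensors IRE1 (Ern1), PERK (Eif2ak3) and ATF6 (Atf6), which act through Xbp1, Atf4 and Ddit3 (CHOP) on folding enzymes, degradation factors and the pseudokinase Trib3. Granulosa cells surround the oocyte and secrete inhibins and AMH, and theca cells make androgen precursors by a route that begins in mitochondria.

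Promoter windows, the 250 bases before the RefSeq transcription start on GRCm38.p6, were available for 29 of the 35 genes and were set beside 32851 such windows. The first pair below is printed because Hspa1a and Hspa1b carried the largest differences between libraries and because their windows have 247 of 250 bases in common, or 98.8%. Capitals mark the heat shock pair GAANNTTC, which reads the same on both strands and lies at bases 104 to 97 before the start in both.
Hspa1a, chr17:34972157-34972406, minus strand: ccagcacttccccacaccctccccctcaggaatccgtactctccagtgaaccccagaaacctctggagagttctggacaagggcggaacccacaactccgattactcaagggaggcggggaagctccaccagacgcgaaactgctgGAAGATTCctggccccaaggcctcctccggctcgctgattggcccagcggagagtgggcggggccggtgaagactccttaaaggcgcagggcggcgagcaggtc
Hspa1b, chr17:34959239-34959488, minus strand: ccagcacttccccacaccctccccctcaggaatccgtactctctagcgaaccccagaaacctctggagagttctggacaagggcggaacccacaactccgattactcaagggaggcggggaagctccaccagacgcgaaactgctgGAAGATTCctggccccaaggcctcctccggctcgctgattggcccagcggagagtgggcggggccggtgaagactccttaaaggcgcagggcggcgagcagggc
The second pair is printed because Hspa5 and Hsp90b1 were the most abundant ER chaperones and showed no ratio past the limit used below in granulosa-like, stroma-like or theca-like cells. Capitals mark the ER stress element (CCAAT, then 9 bases of any kind, then CCACG) on either strand, at bases 65 to 47 before the start in Hspa5 and at bases 107 to 89 and 212 to 194 in Hsp90b1.
Hspa5, chr2:34771840-34772089, plus strand: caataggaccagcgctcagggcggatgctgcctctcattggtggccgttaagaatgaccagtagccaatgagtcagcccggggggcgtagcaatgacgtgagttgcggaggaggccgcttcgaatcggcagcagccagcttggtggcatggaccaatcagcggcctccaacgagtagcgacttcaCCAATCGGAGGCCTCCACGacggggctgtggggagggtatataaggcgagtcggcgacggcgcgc
Hsp90b1, chr10:86705445-86705694, minus strand: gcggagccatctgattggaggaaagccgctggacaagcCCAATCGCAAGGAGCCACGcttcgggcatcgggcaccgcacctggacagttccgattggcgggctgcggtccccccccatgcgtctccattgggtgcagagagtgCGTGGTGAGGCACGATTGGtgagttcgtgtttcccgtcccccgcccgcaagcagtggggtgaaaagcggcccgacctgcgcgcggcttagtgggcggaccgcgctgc

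The heat shock pair GAANNTTC was found in 6 of the 29 windows (Hspa1a, Hspa1b, Hspb1, Dnaja1, Hspd1 and Hspe1) and in 6.69% of all windows. The opposite arrangement TTCNNGAA was found in Hsph1, Dnajb4, Eif2ak3, Hspd1 and Hspe1 and in 7.17% of all windows, and the triple, in which GAANNTTC is followed after any 2 bases by GAA and which overlaps both, in Hspd1 and Hspe1 and in 0.466%. The ER stress element was found in Hspa5, Hsp90b1, Calr, Canx, Pdia6 and Dnajc3, all ER folding genes, and in 37 of all windows, or 0.113%. The amino acid response letters TGATGNAAN were found in Herpud1 and in 3.44% of all windows. These are matches of letters on both strands and nothing more. Hspd1 and Hspe1 start side by side on opposite strands, and their matches lie at mirrored positions. The same sites are thus counted for both genes.

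The deposited libraries held 9202 cells (control), 7141 (doxorubicin), 7818 (doxorubicin+AMH) and 9478 (AMH) with 138647495 to 178279122 transcript tags (UMIs) each. After filters on depth, mitochondrial share and doublets 5998 to 7911 cells per library were left, and pairs of libraries had 11 to 24 cell barcodes in common. Clusters were named from marker lists, and the share in unnamed clusters was 10.1% in the control library, 11.1% with doxorubicin, 14.5% with doxorubicin+AMH and 20.9% with AMH alone. Granulosa-like cells numbered 1519 to 2355 per library and stroma-like cells 2246 to 3101. Theca-like cells, all from cluster 7, numbered 801 in control, 556 with doxorubicin, 175 with doxorubicin+AMH and 164 with AMH, and values listed without library names below keep that order. Mural smooth muscle-like (599 to 1002), macrophage-like (88 to 188) and blood endothelial-like cells (58 to 167) were also compared. Markers of its own type summed to 7064 to 9397 CPM (UMIs scaled to a class total of 1000000) in granulosa-like cells, 9068 to 11390 CPM in stroma-like cells and 11490 to 13630 CPM in macrophage-like cells. In theca-like cells they summed to 11430 CPM in control and 11040 CPM with doxorubicin, against 5902 CPM with both agents and 5244 CPM with AMH alone, so the class differed between libraries in its own markers. An unnamed cluster led by Lhcgr, Prss35 and Dpp6 (cluster 11) held 37 and 20 cells of the libraries without AMH, and 526 and 706 of those with it. Nearly all cells of cluster 31 (79 of 83, granulosa-like, led by Amh) and of the unnamed cluster 27 (179 of 181) came from the doxorubicin library.

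Each of the 35 genes was first placed among the 6 classes compared, and ranks of classes below are among these 6 alone. Granulosa-like cells had the highest mean level of 12 members, macrophage-like cells of 8, theca-like cells of 6, and stroma-like, mural smooth muscle-like and blood endothelial-like cells of 3 each. The leading class did not overlap the next over the 4 libraries for 10 of the 12 members of granulosa-like cells and for 9 of the other members. Of the 9530 genes whose leading class averaged 20 CPM or more, 53.2% had a leading class without overlap, and 18 of the 34 members at that level did, a share near the background. Granulosa-like cells led in 26.2% of these genes and led without overlap in 14.4%, against 12 and 10 of the 34 members. Since the kit tags each transcript once at its 3′ end, levels were not divided by gene length.

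Of the 11 ER folding genes, 6 were highest in granulosa-like cells, each without overlap with the next class, beside 14.4% of all genes, and these include the BiP gene, an HSP90 of the ER and a set of disulfide isomerases. In granulosa-like cells Hspa5 stood at 1080, 1068, 1192 and 1103 CPM, with a mean of 1111 CPM. In macrophage-like cells, next in order, its mean was 697 CPM and its highest library 766 CPM, and the lowest mean, 294 CPM, was that of mural smooth muscle-like cells. Hsp90b1, the ER form of HSP90, followed the same order at the top, with 1307 CPM in granulosa-like and 691 CPM in macrophage-like cells. Pdia4, a protein disulfide isomerase, had a mean of 178 CPM in granulosa-like cells and 70.0 CPM in macrophage-like cells. Pdia6 stood at 485 against 298 CPM, Pdia3 at 572 against 430.5 CPM, and the J-domain partner of BiP, Dnajc3, at 203 CPM against 162 CPM in stroma-like cells. The lectin chaperones Calr and Canx, which hold newly made glycoproteins, were instead highest in macrophage-like cells at 547 and 293 CPM, with Calr overlapping granulosa-like cells. Sdf2l1, a component of ER chaperone complexes, ranged most, from 116 CPM in macrophage-like and 66.7 CPM in granulosa-like cells to 4.55 CPM in mural smooth muscle-like cells.

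The 3 mitochondrial chaperones were all highest in theca-like cells. Hspe1, the co-chaperonin that closes the folding chamber, had a mean of 1231 CPM there and 658 CPM in granulosa-like cells. The chaperonin itself, Hspd1, had 803 against 457 CPM, and both genes separated the 2 classes in all 4 libraries. Hspa9, the mitochondrial HSP70, had 173 against 144 CPM, with overlapping libraries. Among the 6 classes Ern1 was also highest in theca-like cells, at a mean of 194 CPM against 114 CPM in granulosa-like cells, but its 4 theca-like libraries ran from 112 to 276 CPM and overlapped the 105 to 125 CPM of granulosa-like cells. Outside the 6 classes, T or NK lymphocyte-like cells (cluster 24) held more Ern1, at 239, 293, 224 and 351 CPM.

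The inducible cytosolic HSP70 genes, Hspa1a and Hspa1b, had another order, which Hsph1 did not share. Hsph1 had similar means in theca-like (58.0 CPM) and granulosa-like cells (57.1 CPM), above the other classes. Granulosa-like cells had the least Hspa1a, a mean of 27.9 CPM, where macrophage-like cells had 225 and mural smooth muscle-like cells 214 CPM with overlapping libraries, and Hspa1b was lowest there as well, at 24.0 CPM against 150.4 CPM in mural smooth muscle-like cells. Hspb1, a small heat shock protein that holds unfolded protein, was highest among the 6 classes in blood endothelial-like cells (202 CPM) and mural smooth muscle-like cells (147 CPM) and lowest in macrophage-like cells (11.2 CPM). Dnajb4 and the HSP70 co-chaperone Bag3 were highest in mural smooth muscle-like cells at 143 and 104 CPM, without overlap with stroma-like cells at 85.6 and 94.5 CPM. The abundant cytosolic genes Hspa8, Hsp90aa1 and Hsp90ab1 were highest in granulosa-like cells, at 1364, 664 and 3118 CPM. Hspa8 and Hsp90ab1 overlapped theca-like cells, where their means were 1349 and 2884 CPM. Among the 6 classes blood endothelial-like cells were highest for Ddit4, an inhibitor of mTORC1 signalling, with 76.9 CPM against 21.5 CPM in granulosa-like cells, and for Trib3, at only 2.75 CPM. Smaller classes held more of these genes. Surface epithelial-like cells of cluster 26 had Hspb1 at 746, 619, 752 and 527 CPM and Ddit4 at 112, 123, 118 and 109 CPM, and lymphatic endothelial-like cells of cluster 23 had Trib3 at 23.3, 14.7, 20.4 and 27.5 CPM.

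**Figure D1:**
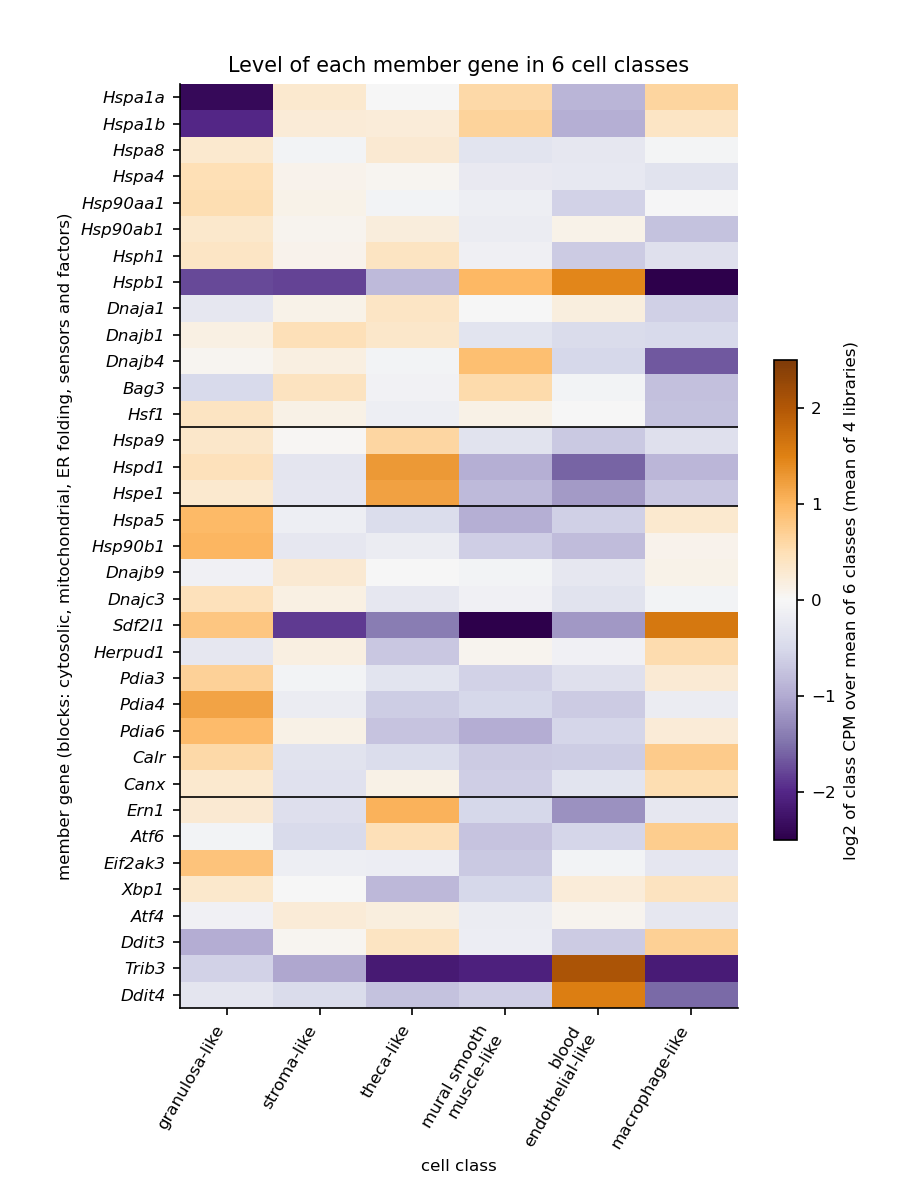
Mean CPM of each of the 35 genes in 6 marker-named cell classes (columns), as log2 of the class over the mean of the 6 classes, averaged over the 4 libraries; orange is above that mean and purple below. Hspa5 and Hsp90b1 are highest in granulosa-like cells, Hspd1 and Hspe1 in theca-like cells, and Hspa1a and Hspa1b are lowest in granulosa-like cells.

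For comparisons between libraries, UMIs were summed over the cells of a class and library, and log2 ratios were taken for genes whose mean over the libraries reached 20 CPM. A ratio is called past the limit when its log2 value is at least 0.5 in size, a fold of 1.41. Of the 35 members, 33 reached 20 CPM in granulosa-like cells, 31 in stroma-like and mural smooth muscle-like cells, and 30 in theca-like, blood endothelial-like and macrophage-like cells. In all 6 classes 28 members reached it, and Trib3 in none. A gene can reach this level through its high library alone, so the counts describe these libraries only.

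The largest and widest difference among the members was in the inducible cytosolic HSP70 genes, which were highest in the AMH library in each of the 6 classes compared. In stroma-like cells Hspa1a stood at 125 CPM (control), 154 CPM (doxorubicin), 123 CPM (doxorubicin+AMH) and 304 CPM (AMH). Hspa1b stood at 67.2, 89.4, 70.4 and 224 CPM in the same order, and Hsph1, the HSP110 that recharges HSP70 with nucleotide, at 35.9, 40.1, 40.3 and 70.1 CPM. The AMH library was thus high and the other libraries lay close together. As log2 ratios to control, AMH was higher by 1.29 for Hspa1a (interval 1.23 to 1.34), 1.74 for Hspa1b (1.67 to 1.81) and 0.97 for Hsph1 (0.86 to 1.07), where intervals are 95% and cover counting error only. Hspb1 was the fourth member past the limit, at 17.8, 15.5, 20.9 and 30.3 CPM, or 0.76 for AMH over control. These were 4 of 31 members higher and none lower, while 0.645% of 6669 genes were higher and 1.81% lower.

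Set against the AMH library, doxorubicin+AMH was lower in stroma-like cells for the same names, with log2 ratios of -1.30 for Hspa1a, -1.67 for Hspa1b, -0.80 for Hsph1 and -0.53 for Hspb1, 4 of 31 members, beside 0.72% of all genes lower and 0.435% higher. Both comparisons use the AMH library, so they are not independent. The Hspb1 ratio did not reach the limit with a pseudocount, with a stricter mitochondrial limit or with clusters weighted equally (-0.41). In the comparisons that leave the AMH library out, none of the 31 members was past the limit in stroma-like cells. Doxorubicin over control gave 0.30 for Hspa1a and 0.41 for Hspa1b, the highest member, and -0.21 for Hspb1, the lowest, with 0.495% of all genes higher and 0.315% lower. Doxorubicin+AMH over doxorubicin gave -0.32 for Hspa1a, -0.34 for Hspa1b, the lowest, and 0.44 for Hspb1, the highest, with 0.405% of all genes higher and 1.74% lower. The medians of the 31 members were -0.03, -0.04, -0.02 and -0.02 for doxorubicin over control, doxorubicin+AMH over AMH, AMH over control and doxorubicin+AMH over doxorubicin, against -0.01, 0.03, -0.08 and -0.03 for all genes. With median-of-ratios scaling the AMH over control median was 0.061 in place of -0.02.

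**Figure D2:**
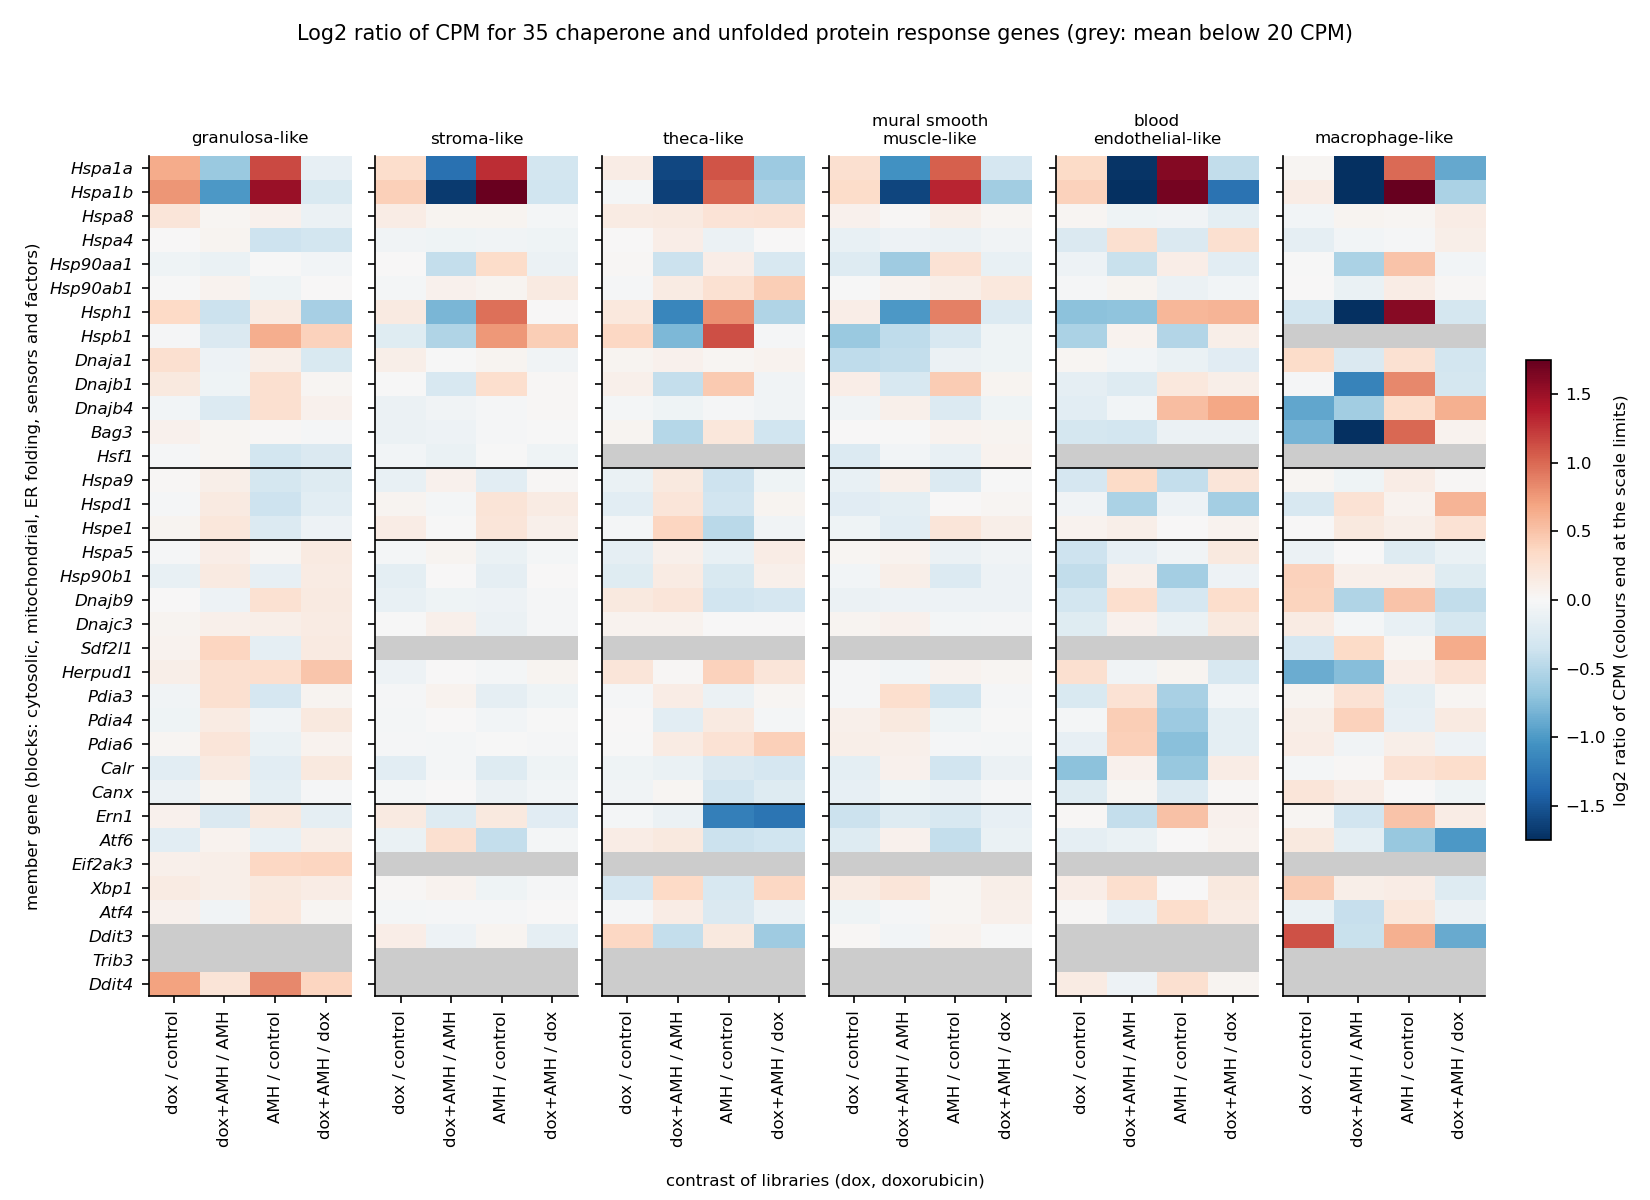
Log2 ratios of CPM for the 35 genes (rows, in blocks by role) in 4 contrasts of libraries within each of 6 cell classes; red is higher in the first-named library, blue lower, and grey marks genes below a mean of 20 CPM. The rows of Hspa1a, Hspa1b and Hsph1 carry most of the strong colours in the AMH contrasts, and the ER folding block is pale in granulosa-like, stroma-like and theca-like cells.

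Theca-like and mural smooth muscle-like cells had the same library on top. In theca-like cells Hspa1a stood at 115, 127, 81.5 and 246 CPM. Hspa1b stood at 96.6, 94.2, 63.4 and 196 CPM, Hsph1 at 49.6, 56.5, 39.2 and 86.7 CPM, and Hspb1 at 29.2, 37.4, 36.8 and 63.5 CPM. For Hspa1a, Hspa1b and Hsph1 the doxorubicin+AMH library was the lowest of the 4 and the AMH library the highest. AMH over control gave 1.09, 1.02, 0.81 and, for Hspb1, the highest member, 1.124, which made 4 of 30 members higher beside 6.56% of 6201 genes. Doxorubicin+AMH over AMH gave -1.59, -1.63, -1.14 and -0.79, 4 of 30 lower beside 3.11% of genes lower and 2.03% higher. Doxorubicin+AMH over doxorubicin, which has no AMH library, gave -0.64, -0.57 and -0.53 for Hspa1a, Hspa1b and Hsph1, and with Ddit3 and Ern1 this made 5 of 30 members lower, beside 13% of genes lower and 7.97% higher. These last values were not stable. With doublets left in, Hspa1a turned to 0.022 and Hspa1b to -0.11, and Hsph1 came to -0.39 with a marker gate in place of clusters. The tissue handling genes described below had a median of -0.24 in the same comparison, with 13 of 17 below 0, and their part was not tested. The highest member there was Hsp90ab1, the constitutive cytosolic HSP90, at 2558, 2519, 3384 and 3077 CPM and a ratio of 0.43, with both libraries with AMH above both without it. Doxorubicin over control placed no member past the limit, beside 0.516% of genes higher and 0.629% lower.

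In mural smooth muscle-like cells, which hold the contractile cells of vessels and ovary, Hspa1a stood at 162, 197, 161 and 336 CPM and Hspa1b at 108, 135, 88.8 and 270 CPM. Hsph1 stood at 33.3, 35.97, 30.5 and 61.5 CPM, and Hsp90aa1, the stress-responsive cytosolic HSP90, at 439, 374, 342 and 524 CPM. The AMH library was again the highest for all 4. AMH over control placed Hspa1a (1.05), Hspa1b (1.33) and Hsph1 (0.88) past the limit, 3 of 31 members, beside 0.652% of genes higher. Doxorubicin+AMH over AMH placed those and Hsp90aa1 (-0.62) below it, 4 of 31, beside 2.14% of genes lower, and doxorubicin+AMH over doxorubicin placed Hspa1b (-0.60), beside 1.93% lower and 0.546% higher. Hspb1 went another way in this class, at 192, 123, 117 and 158 CPM, with the control library highest and a doxorubicin over control ratio of -0.65, the only member past the limit, beside 2.2% of genes lower and 0.682% higher. Cluster 17 of this class, led by Des, Cnn1 and Actg2, supplied 201, 19, 56 and 182 cells in the same order, and its part in the Hspb1 ratio was not tested. In the other listed clusters of the class Hspb1 stood at 117.5, 107.4, 96.7 and 122.6 CPM (cluster 2) and at 113, 123, 93.2 and 144 CPM (cluster 20), so the doxorubicin over control ratios were -0.13 and 0.12 and the AMH library was the highest in both.

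Granulosa-like cells had low levels of both genes. Hspa1a stood at 18.0, 28.2, 25.5 and 39.9 CPM, and Hspa1b at 13.8, 23.5, 19.5 and 39.2 CPM. The control library was lowest and the AMH library highest for both. Doxorubicin over control gave 0.65 for Hspa1a, 0.77 for Hspa1b, the highest member, and 0.70 for Ddit4, 3 of 33 members higher beside 0.289% of 6564 genes, and no member lower beside 0.609%. AMH over control gave 1.15 and 1.51, and with Hspb1 (0.64) and Ddit4 (0.84) made 4 of 33 members higher beside 1.71% of genes higher and 3.85% lower. Doxorubicin+AMH over AMH gave -0.65 and -1.01, 2 of 33 members lower beside 0.914%, with none higher beside 0.213%. Doxorubicin+AMH over doxorubicin placed only Hsph1 past the limit, at -0.58, beside 4.07% of genes lower and 1.84% higher, and this ratio came to -0.42 with each cell weighted equally. Hsph1 stood at 54.1, 68.8, 45.9 and 59.6 CPM, so here the doxorubicin library was the highest. Dnajb1, the J-domain partner that hands clients to HSP70, stood at 89.0, 100.5, 103 and 109 CPM in granulosa-like cells, at 118, 118, 119 and 144 CPM in stroma-like cells and at 102, 108, 104 and 139.5 CPM in theca-like cells, the AMH library being highest in each and no ratio past the limit.

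Tags from free RNA can enter any droplet, so the low granulosa-like values were set beside erythroid-like cells, which served as a background. Hspa1a stood at 17.4, 27.2, 10.9 and 27.2 CPM in erythroid-like cells, from 5 to 11 UMIs per library. After each cell was thinned to 2000 UMIs, an Hspa1a UMI was held by 3.50%, 5.996%, 5.27% and 7.90% of granulosa-like cells. In erythroid-like cells 4.26%, 5.56%, 0 (0 of 60 cells, which allows a share of up to 5.0%) and 6.45% did. The control share lay at or below its own background, and the other granulosa-like shares lay above theirs, by little with doxorubicin and with AMH. The erythroid-like values rest on few cells, so by these thinned shares the granulosa-like Hspa1a levels and ratios could not be told apart from background. Unthinned, the granulosa-like shares were 29.1%, 33.7%, 31.1% and 37.3% at median depths of 23771, 23737, 21247.5 and 16120 UMIs. The unthinned erythroid-like shares were lower, at 8.3%, 5.1%, 6.7% and 12.2%, but at median depths of only 5503.5, 6553, 5516 and 3928 UMIs. The part of free RNA in either was not tested. In stroma-like cells the thinned shares were far above the thinned erythroid-like ones, at 22.2%, 24.1%, 21.1% and 38.6%. The unthinned stroma-like shares were 47.1%, 52.4%, 48.0% and 66.8% at median depths of 8882, 11570.5, 9028 and 7931 UMIs. For Hspa1b the thinned shares were 13.3%, 16.6%, 15.3% and 34.1% in stroma-like cells, 2.31%, 3.64%, 4.09% and 8.08% in granulosa-like cells, and 4.26%, 0, 0 and 3.23% in erythroid-like cells, where 0 allows up to 5.56% and 5.0%. The erythroid-like Hspa1b levels were 8.71, 4.94, 6.51 and 5.43 CPM from 1 to 3 UMIs per library, with upper bounds of 25.5, 17.85, 19.04 and 30.3 CPM. The granulosa-like levels were above those bounds in all libraries but the control, by little with doxorubicin+AMH. Of the granulosa-like libraries only AMH, at 8.08%, lay above all of these erythroid-like shares and limits.

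**Figure D3:**
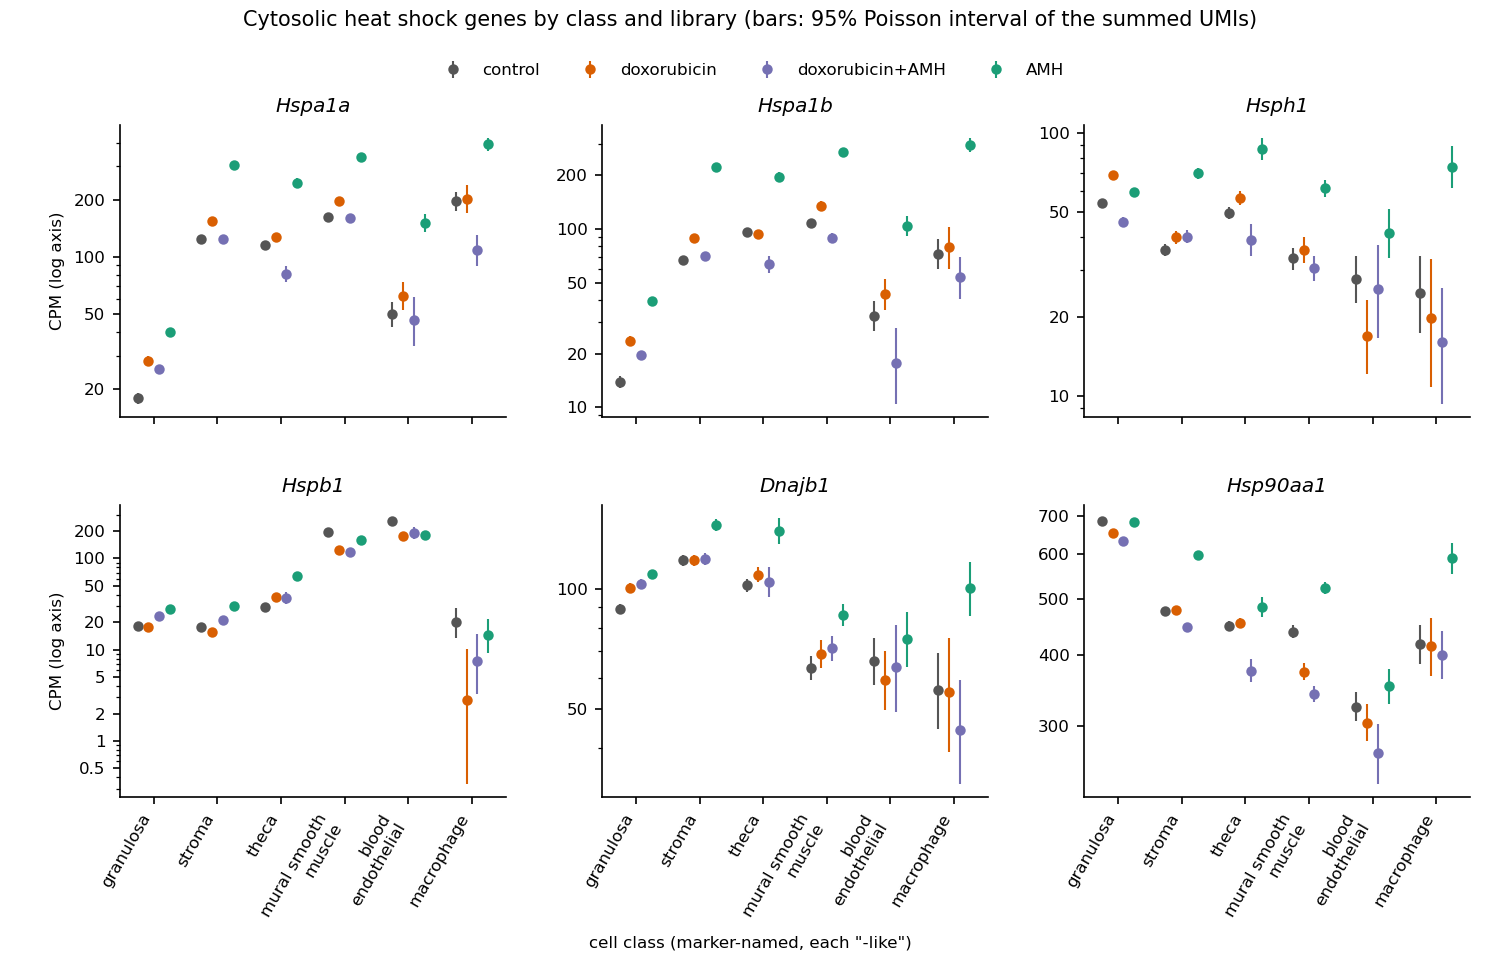
CPM (log axis) of 6 cytosolic heat shock genes in 6 cell classes, 1 point per library, with bars for the 95% Poisson interval of the summed UMIs, which covers counting error only. The green points (AMH) lie above the others for Hspa1a and Hspa1b in all 6 classes, while Hspb1 is highest in control in mural smooth muscle-like and blood endothelial-like cells.

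The small classes had the same library on top for HSP70. Larger shares of all genes were past the limit in them than in stroma-like cells. In blood endothelial-like cells Hspa1a stood at 49.6, 62.3, 46.1 and 151 CPM and Hspa1b at 32.6, 43.2, 17.6 and 104 CPM. AMH over control placed 5 of 30 members higher (Hspa1a, Hspa1b, Hsph1, Dnajb4 and Ern1), beside 4.48% of 6833 genes, and 6 lower (Hsp90b1, Hspb1, Pdia3, Pdia4, Pdia6 and Calr), beside 10.3%. The lower set was led by the ER isomerase Pdia6 at 209.9, 190.2, 169.7 and 127 CPM (-0.73) and by Calr at 289, 175, 191 and 182 CPM (-0.67), for which the control library alone was high. Doxorubicin over control placed Hsph1, Hspb1 and Calr lower, 3 of 30 beside 3.94%, with no member higher beside 1.67%, and doxorubicin+AMH over AMH placed Hspa1a, Hspa1b, Hsph1 and Hspd1 lower, 4 of 30 beside 6.35%, and none higher beside 8.37%. Doxorubicin+AMH over doxorubicin placed Hsph1 and Dnajb4 higher beside 6.6% and Hspa1b and Hspd1 lower beside 7.38%.

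Among the 6 classes, a member passed the limit in the same direction in 2 comparisons that have no library in common in this class and in theca-like and macrophage-like cells. Hsph1 in blood endothelial-like cells stood at 27.9, 16.95, 25.5 and 41.6 CPM, lower with doxorubicin in both pairs (-0.72 and -0.71) and higher with AMH in both (0.58 and 0.59), on 26 to 94 UMIs per library. Dnajb4, a J-domain co-chaperone of HSP70, stood at 44.8, 39.4, 62.8 and 65.0 CPM, higher with AMH in both pairs (0.54 and 0.67). Both libraries with AMH were above both without it for Dnajb4. Of all genes tested in this class 0.878% passed the limit in the same direction in both doxorubicin pairs and 3.6% in both AMH pairs, with 1 and 2 of the 30 members. The tissue handling genes described below had a positive median for AMH over control in this class, and their part was not tested.

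Macrophage-like cells had the highest mean Hspa1a, at 197, 202, 108 and 391 CPM, with Hspa1b at 72.5, 79.1, 53.8 and 297 CPM. AMH over control placed 6 of 30 members higher, namely Hspa1a (0.99), Hspa1b (2.03), Hsph1 (1.60), Dnajb1 (0.84), Bag3 (1.01) and Ddit3 (0.63), beside 7.74% of 6307 genes, and Atf6 lower (-0.66) beside 8.45%. Doxorubicin+AMH over AMH placed 9 of 30 lower, beside 13%, and none higher beside 8.1%. In this class 3 members were lower with doxorubicin in both pairs, on 10 to 218 UMIs. Bag3 stood at 39.9, 22.6, 23.6 and 80.4 CPM (-0.82 and -1.77), Herpud1, an ER degradation factor, at 121, 66.4, 78.3 and 131 CPM (-0.87 and -0.74), and Dnajb4 at 26.6, 14.1, 21.7 and 33.0 CPM (-0.91 and -0.60). Both libraries with doxorubicin were below both without it for each of the 3 genes. These were 3 of 30 members beside 4.2% of genes, and doxorubicin over control alone placed 3 members lower beside 9.91% and Ddit3 (1.11) higher beside 10.2%. In the same cells the 17 genes of tissue handling, immediate early genes that dissociation can induce, were all below 0 in doxorubicin over control (0 of 17 above 0, median -0.37) and 16 of 17 in doxorubicin+AMH over AMH (median -0.37). The 4 neutrophil markers summed to 196 and 328 CPM in the libraries without doxorubicin and 621 and 538 CPM in those with it. The part of either in these ratios was not tested. Atf6, an ER sensor cleaved in the Golgi, stood at 134, 151, 75.5 and 85.2 CPM, lower with AMH in both pairs (-0.66 and -1.001), where 4.68% of genes passed likewise. Doxorubicin+AMH over doxorubicin placed Hspd1, Dnajb4 and Sdf2l1 higher beside 10.7% and Hspa1a, Hspa1b, Ddit3 and Atf6 lower beside 17.4%.

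Finer groups of cells were counted as well. Of 24 clusters with at least 20 cells in every library, Hspa1a was highest in the AMH library in 20 and Hspa1b in 22. The 4 other clusters for Hspa1a were granulosa-like cluster 8, where doxorubicin stood at 42.3 and AMH at 40.7 CPM, and the erythroid-like, lymphatic endothelial-like and surface epithelial-like clusters. The 24 include 6 granulosa-like clusters and the erythroid-like one that served as background, and the part of free RNA in these counts was not tested. Hsp90aa1 and Hsph1 were highest in the AMH library in 19 clusters each, Dnajb1 in 18, Ddit3 in 14 and Hspb1 in 13. The clusters come from the same 4 libraries and are not replicates, and such counts over all genes are not given here. Of the ER folding genes, Hspa5, Hsp90b1 and Pdia3 were highest in the AMH library in 1, 0 and 0 clusters, while Dnajb9 and Herpud1 were highest there in several. In cluster 11, Hspa1a stood at 42.3, 70.4, 145 and 379 CPM and Hspa1b at 74.6, 46.9, 96.3 and 294 CPM, the values of the libraries without AMH resting on 14 to 30 UMIs from 37 and 20 cells. Doxorubicin+AMH over doxorubicin was above 0 there, at 1.04 for Hspa1a (interval 0.43 to 1.74) and 1.04 for Hspa1b (0.28 to 1.91), where the 6 classes had values below 0. In the same comparison all 17 tissue handling genes, described below, were above 0, with Socs3 at 2.66 and Ier3 at 2.54, and their part was not tested. Doxorubicin+AMH over AMH gave -1.39 for Hspa1a, -1.61 for Hspa1b, -1.19 for Hsph1, -0.83 for Hspb1 and -0.64 for Hsp90aa1, 5 of 31 members lower beside 0.867% of 6346 genes. In cluster 5, an unnamed cluster led by Kcnq5, Ank3 and Bmpr1b, AMH over control gave 0.76 and 0.96 for Hspa1a and Hspa1b, beside 0.89% of genes higher, and doxorubicin+AMH over AMH gave -0.76 and -0.92, beside 0.583% lower. Doxorubicin over control placed no member past the limit in cluster 5, beside 0.184% of genes higher and 0.491% lower.

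**Figure D4:**
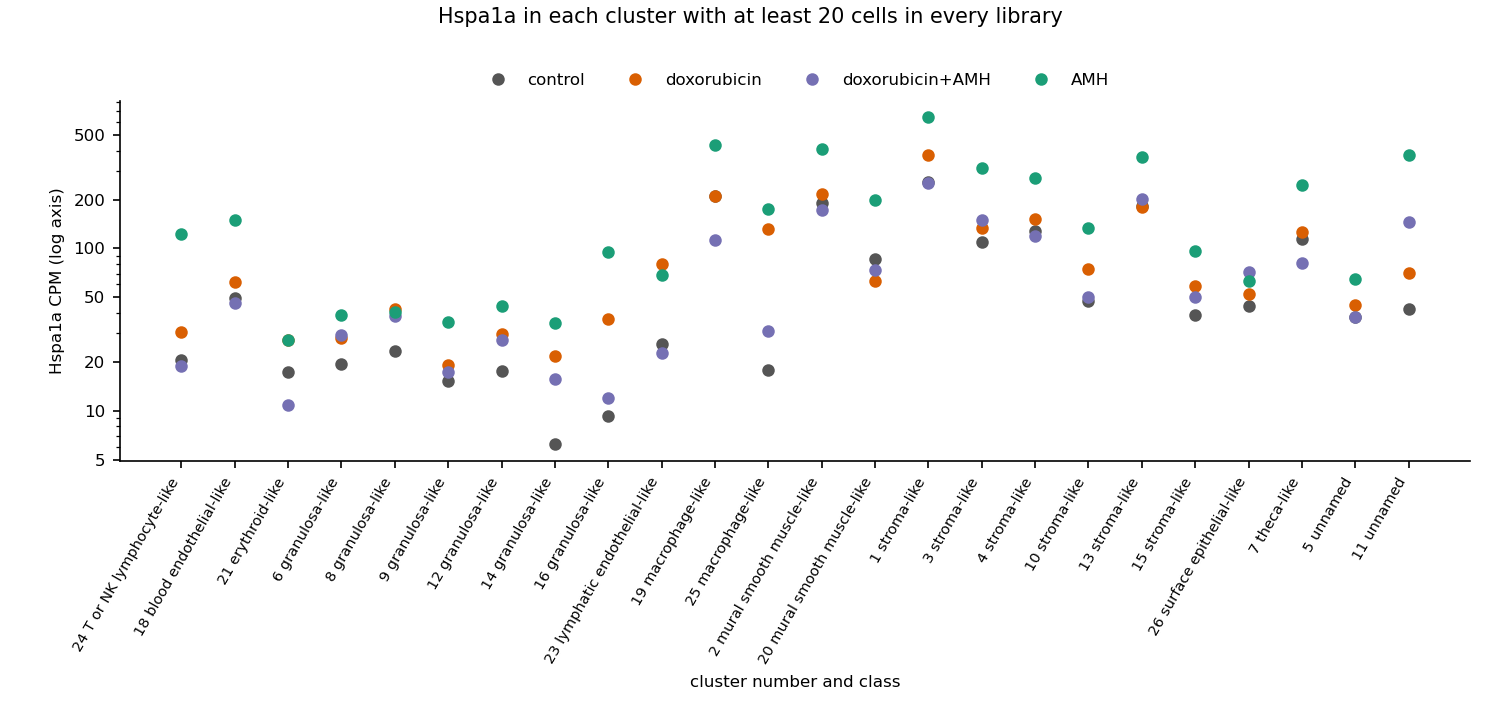
Hspa1a CPM (log axis) in each of 24 clusters with at least 20 cells in every library, 1 point per library. The AMH library is highest in 20 clusters, and stroma-like cluster 1 holds the highest level, at 645 CPM in AMH against 253 to 375 CPM in the other libraries.

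Depth, mitochondrial share and tissue handling were set beside the HSP70 levels. In stroma-like cells with 5000 to 20000 UMIs, Hspa1a stood at 149.9, 199, 151 and 347 CPM, and in those above 20000 UMIs at 55.6, 86.5, 58.2 and 140.0 CPM. The AMH library was highest in every depth bin and mitochondrial bin of granulosa-like, stroma-like and mural smooth muscle-like cells, except in mural smooth muscle-like cells with 6 to 20% mitochondrial UMIs, where doxorubicin stood at 191 and AMH at 173 CPM. The 17 tissue handling genes summed to 16680, 16070, 15740 and 14870 CPM in stroma-like cells, lowest in the library with the highest HSP70, and 2 of 17 were above 0 in AMH over control. Their median for AMH over control was 0.07 in granulosa-like, -0.14 in stroma-like, -0.15 in macrophage-like, -0.07 in theca-like and 0.21 in blood endothelial-like cells, and mural smooth muscle-like cells had -0.08. Differences in animals, dissection and library preparation cannot be told apart from treatment with 1 library per group.

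In granulosa-like cells none of the 11 ER folding genes was past the limit in any of the 4 contrasts. Sdf2l1 stood at 64.9, 67.9, 75.7 and 58.2 CPM and was the highest member of doxorubicin+AMH over AMH at 0.38. Herpud1 stood at 47.7, 51.0, 71.6 and 58.7 CPM and was the highest member of doxorubicin+AMH over doxorubicin at 0.49 (interval 0.41 to 0.56), just under the limit. Dnajb9, an IRE1 target and BiP partner, stood at 70.9, 71.2, 79.7 and 85.1 CPM. For Hspa5, Sdf2l1 and Herpud1 the doxorubicin+AMH library was the highest of the 4 in these cells, and 10 of the 11 genes were above 0 in each comparison of that library, which stands in both (median 0.16 over AMH and 0.16 over doxorubicin), where 51.5% and 43.5% of all genes were above 0 with medians of 0.01 and -0.03. Calr, the lowest member of doxorubicin over control at -0.19, stood at 516, 454, 509 and 455 CPM.

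In stroma-like cells Hspa5 stood at 531, 518, 505 and 489 CPM, Herpud1 at 78.4, 73.9, 76.5 and 76.2 CPM and Dnajb9 at 106, 96.7, 95.05 and 99.7 CPM, with Sdf2l1 at 8.35 to 13.0 CPM, below the filter. The 10 ER folding genes that reached the filter had medians of -0.04 in doxorubicin over control and -0.10 in AMH over control. These comparisons have the control library in common, and no gene was past the limit. The medians of all genes in the same comparisons, given above, were close to these. In theca-like cells Hspa5 stood at 443, 395, 433 and 406 CPM, Herpud1 at 34.9, 40.6, 46.8 and 46.0 CPM and Dnajb9 at 84.9, 96.0, 78.1 and 67.3 CPM, with Sdf2l1 below the filter at 15.9, 19.9, 8.41 and 13.4 CPM. No ER folding gene was past the limit in theca-like cells either. That no ratio passed the limit does not show that the levels were alike.

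The mitochondrial chaperones had no ratio past the limit in granulosa-like, stroma-like, theca-like or mural smooth muscle-like cells, while Hspd1 passed it in blood endothelial-like cells (-0.56 for doxorubicin+AMH over AMH and -0.59 over doxorubicin, both with the same library) and in macrophage-like cells (0.60 for doxorubicin+AMH over doxorubicin). Hspd1 stood at 503, 497, 438 and 392 CPM in granulosa-like cells and was the lowest member there for AMH over control, at -0.36. In theca-like cells Hspe1 stood at 1356, 1325, 1266 and 976 CPM, and doxorubicin+AMH over AMH gave 0.38, the highest member. Both genes share sequence with processed copies elsewhere in the genome, since 18.6% of the 90-base words in the last 500 bases of Hspd1, and a larger share of those of Hspe1, occur in other annotated transcripts, and the same holds for 60.6% of Hspa8, 35.5% of Dnaja1, 34.9% of Hspb1 and 18.7% of Hsp90aa1. Their counts are therefore uncertain. No such word was shared for Hspa1a or Hspa1b, but Hspa1a (chr17:34969190-34972156, GRCm38) overlaps the antisense gene Gm20481, and use of strand in counting is not stated in the sources used here.

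Among sensors and factors, Ern1 in theca-like cells had the ratio farthest from 0 in the 6 classes. Ern1 (chr11:106394650-106487852, GRCm38), the ER kinase and nuclease that splices Xbp1, stood at 276 CPM (control), 270.5 CPM (doxorubicin), 112 CPM (doxorubicin+AMH) and 119.9 CPM (AMH) in theca-like cells. Both libraries with AMH were below both without it. It was the lowest member of both AMH comparisons, at -1.20 (interval -1.33 to -1.08) against control and -1.28 (-1.41 to -1.15) with doxorubicin, and the only one of 30 members past the limit in the same direction in both, where 12.4% of all genes passed likewise. It was also the only member lower in AMH over control there, beside 10.8% of genes. The ratios ran from -1.36 to -0.96 and from -1.59 to -1.20 over the alternatives. The 7 theca markers summed to lower levels in the same libraries (5902 and 5244 CPM against 11430 and 11040 CPM), and the 8 stroma markers to higher ones (2052 and 1918 CPM against 762 and 788 CPM), with no marker of either list at 0. In cluster 11, where theca markers summed to 2515 and 2240 CPM in the libraries with AMH, Ern1 stood at 77.7 and 97.7 CPM. The part of these marker differences in the Ern1 ratio was not tested. In granulosa-like cells Ern1 stood at 105 to 125 CPM, and its thinned share of cells was 35.3%, 33.8%, 15.4% and 16.6% in theca-like cells against 0 to 3.23% in erythroid-like cells. Surface epithelial-like cells of cluster 26 had Ern1 at 197, 255, 148 and 125 CPM, also lower in both libraries with AMH. In most other clusters the libraries with AMH were not both below those without it.

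Ddit4 (chr10:59949669-59951834, GRCm38) stood at 13.2, 21.4, 27.7 and 23.6 CPM in granulosa-like cells, with the control library lowest. Doxorubicin over control gave 0.70 (interval 0.56 to 0.85), AMH over control 0.84, doxorubicin+AMH over AMH 0.23 and doxorubicin+AMH over doxorubicin 0.37. In stroma-like cells it stood at 14.5, 23.2, 18.5 and 20.9 CPM, below the filter, again lowest in control, and in theca-like cells at 14.7, 20.04, 11.2 and 16.9 CPM. Over clusters, which come from the same libraries and are not replicates, doxorubicin over control was above 0 in 17 of 21 with a ratio. Ddit4 levels in erythroid-like cells were 0, 9.88, 17.4 and 10.9 CPM, below the granulosa-like level of the same library but from few cells. Its thinned shares were 2.78%, 4.57%, 4.79% and 4.17% in granulosa-like cells against 0 (up to 6.38%), 3.70%, 1.67% and 3.23% in erythroid-like cells. By these thinned shares the granulosa-like levels and ratios could not be told apart from background. Unthinned, the shares were 26.9%, 33.8%, 35.3% and 28.4% against 0, 5.1%, 4.0% and 4.9%, at unlike depths. Granulosa-like cluster 8, picked out after its values were seen, had Ddit4 at 20.3, 46.2, 55.4 and 31.8 CPM, with ratios of 1.19 for doxorubicin over control and 0.80 for doxorubicin+AMH over AMH. Blood endothelial-like cells, where the thinned shares were 14.4%, 14.3%, 13.5% and 21.8%, had Ddit4 at 69.2, 76.2, 78.5 and 83.8 CPM, with no ratio past the limit.

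The remaining sensors and factors, those of the PERK arm first, are given with their levels. Atf4, which carries the arm's signal to the nucleus, stood at 133, 140.3, 144 and 151 CPM in granulosa-like cells, 184, 179, 179 and 181 CPM in stroma-like cells and 185, 183, 171 and 156 CPM in theca-like cells, with no ratio past the limit. Ddit3 stood at 13.8, 14.2, 17.8 and 18.4 CPM in granulosa-like cells, below the filter, at 31.7, 34.6, 31.0 and 32.9 CPM in stroma-like cells and at 39.0, 50.1, 32.6 and 43.7 CPM in theca-like cells. In theca-like cells it was the highest member of doxorubicin over control (0.36) and past the limit in doxorubicin+AMH over doxorubicin (-0.62), a value of -0.14 with doublets left in. In macrophage-like cells, on 43 to 89 UMIs, it stood at 34.6, 74.8, 40.6 and 53.4 CPM with the doxorubicin library highest. Its 2 gene identifiers overlap on the same strand, so its sum can miss reads and is uncertain. Trib3, a target of Atf4 and Ddit3, was low in these classes, at 0.24 to 0.69 CPM in granulosa-like, 0.04 to 0.56 CPM in stroma-like and 0 to 0.41 CPM in theca-like cells. Of the 6 classes only granulosa-like cells reached the filter for Eif2ak3, at 29.1, 31.0, 40.2 and 37.4 CPM. Xbp1 stood at 82.2, 90.8, 99.7 and 92.9 CPM there, and in theca-like cells, at 44.0, 35.8, 46.0 and 36.1 CPM, it was the lowest member of doxorubicin over control (-0.30). Atf6 in stroma-like cells stood at 53.9, 49.8, 48.6 and 40.2 CPM and was the lowest member of AMH over control (-0.42) and the highest of doxorubicin+AMH over AMH (0.27), which have the low AMH library in common.

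**Figure D5:**
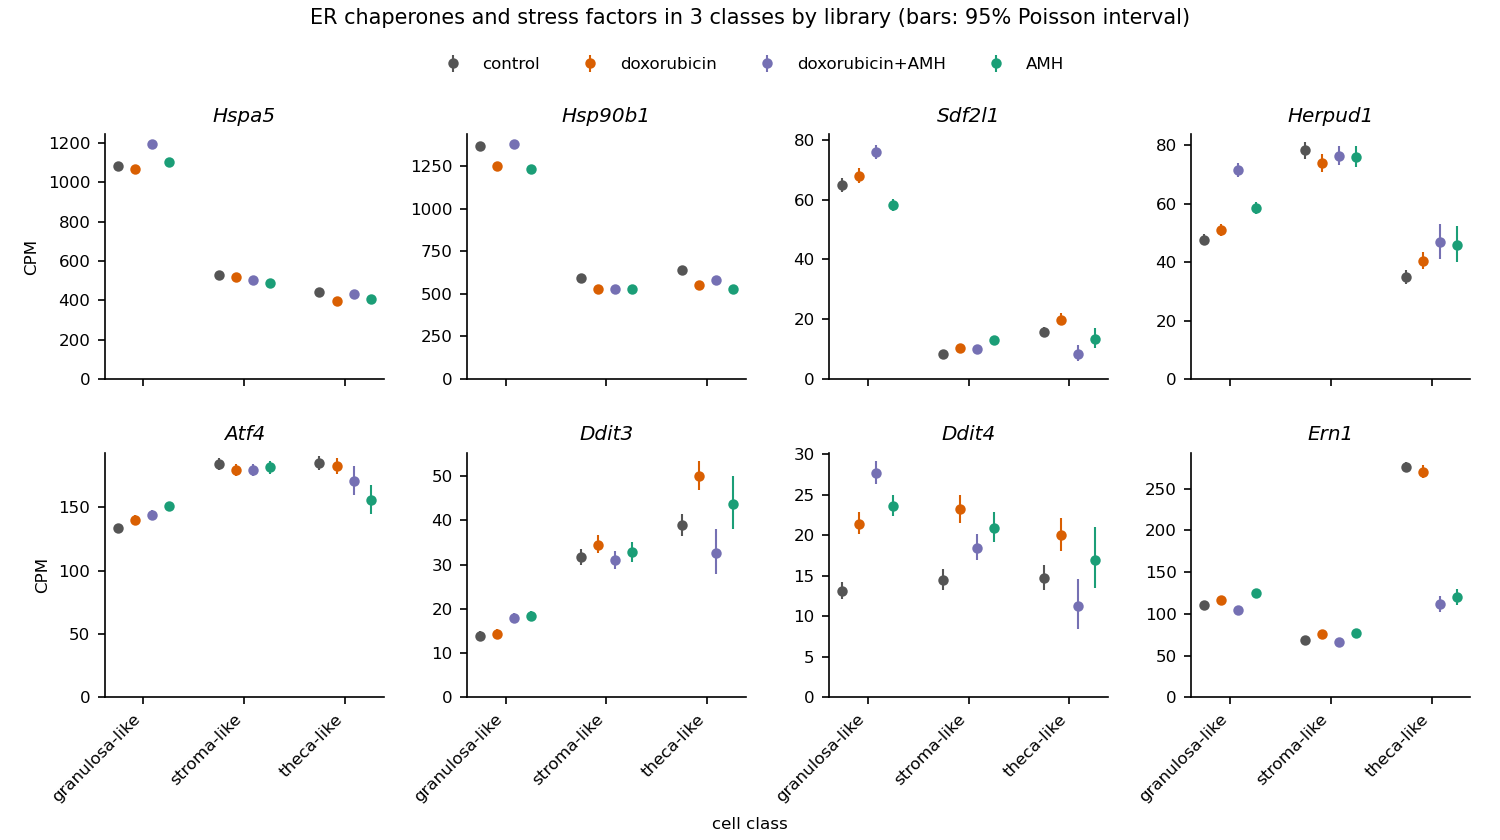
CPM of ER chaperones and stress factors in granulosa-like, stroma-like and theca-like cells, 1 point per library, with 95% Poisson intervals for counting error. Ern1 in theca-like cells is at 276 and 270.5 CPM in the libraries without AMH and at 112 and 119.9 CPM in those with it, while Hspa5 lies between 1068 and 1192 CPM in granulosa-like cells.

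Other genes of the same pathways, 64 by name with 63 in the files, were counted in the same way. In stroma-like cells 44 reached the filter and none was past the limit in any contrast, among them the listed HSF1 targets and cytosolic co-chaperones. In granulosa-like cells 50 reached it. None was past the limit in either doxorubicin comparison (medians 0.09 and 0.09), AMH over control placed Nupr1 higher and Slc7a5 lower, and doxorubicin+AMH over doxorubicin placed Nupr1 and Derl3 higher and Slc7a5 lower. In theca-like cells, with 50 at the filter, both AMH comparisons placed Cryab, Phgdh, Stc2 and Vldlr higher, 4 of 50, beside 6.56% and 7.97% of all genes, and 4 and 7 of 50 lower, beside 10.8% and 13%, which are shares near those of the background. The lower genes included the mitochondrial protease Lonp1 and the amino acid carriers Slc3a2 and Slc7a5.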

How the data were processed

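Single cells of mouse ovary were profiled with a 10x Genomics 3′ v3.1 kit, per the labels' protocols. The authors deposited 4 matrices of UMI counts per gene and cell, made with Cell Ranger 7.0.0, per the file headers. The build mm10, R 4.2.0 and Seurat 4.1.0 stand in the submitters' processing notes without a role, and the annotation, use of strand and counting of intronic reads are not given in the sources used here. The deposited cells each hold at least 500 UMIs.

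From these counts, cells were kept from 1000 UMIs upward when mitochondrial genes held no more than 20% of them, and the highest Scrublet scores were removed as doublets at 0.8% per 1000 cells, which took out 408 to 719 cells per library. The 4 libraries were clustered together (2000 variable genes, 30 principal components, 20 neighbours, Leiden resolution 1.0) with Python 3.11.15, scanpy 1.11.5 and leidenalg 0.10.2. A cluster took a class name when at least 3 markers and 60% of a marker list passed a log2 excess of 1, a rule set after seeing the data, and 25 of 32 clusters were named in 10 classes. UMIs were summed per class and library, scaled to CPM and compared as log2 ratios without a pseudocount. Intervals are exact (Poisson for sums, binomial for ratios, Clopper-Pearson for shares) and cover counting error only. The limit given beside a share of 0 is 3 divided by the number of cells, not the exact bound. There is no test, since each group is 1 library. All 35 members were counted. Values in every library are given for members past the limit in the same direction in 2 contrasts with no library in common, for the highest and lowest member of each contrast in granulosa-like, stroma-like and theca-like cells, and for a set list of heat shock, ER and stress response genes. The members, lists and rules were chosen with earlier results of these data known, and genes named outside the rule were chosen after their values were seen. The ratio code was tested on simulated data, and 10 alternatives were computed. Gene positions are from GENCODE vM21 on GRCm38.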

Additional observations from a re-analysis of the deposited data

Results flagged for a closer look

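A set of 10 values stood out because the same contrast was past the limit of 0.5 in opposite directions in the 2 pairs of libraries that differ in the other agent. Members with opposite signs but 1 ratio under the limit are not among them, such as stroma-like Hspa1b, where AMH gave 1.74 without doxorubicin and -0.34 with it. Each pair has 1 library a side, so none of these differences was tested, and all involve the AMH library. In granulosa-like cells doxorubicin went with higher Hspa1a and Hspa1b in the pair without AMH and with lower levels in the pair with AMH, and the second log2 ratio minus the first was -1.30 for Hspa1a and -1.77 for Hspa1b. The Hspa1a levels could not be told apart from those of erythroid-like cells at this depth.

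The other 8 concern AMH, which went with higher levels in the pair without doxorubicin and with lower levels in the pair with it. The log2 ratio with doxorubicin minus that without was -1.73 for Hspa1a, -1.59 for Hspa1b and -1.33 for Hsph1 in theca-like cells, where marker sums also differed between the libraries. For each of these theca-like genes the ratio with doxorubicin missed the limit under some settings, as given below. The same difference was -1.93 for Hspa1b in mural smooth muscle-like cells and -2.97 for Hspa1b in blood endothelial-like cells. In macrophage-like cells it was -1.89 for Hspa1a, -2.59 for Hspa1b and -1.51 for Ddit3, the last on 43 to 89 UMIs per library. The macrophage-like Hspa1b ratio with doxorubicin had an interval of -1.11 to 0.0025.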

How the results depend on the processing

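No paired analysis was possible because each group has 1 library. Of the named member ratios in granulosa-like, stroma-like and theca-like cells 32 were past the limit, 26 of them under every alternative run. Ratios named in the other classes and in single clusters are not among these. The reversed one was Hspa1a in theca-like cells for doxorubicin+AMH over doxorubicin, 0.022 with doublets left in against -0.64. Ratios of Hspa1b, Hsph1 and Ddit3 in that comparison, of Hspb1 in stroma-like and of Hsph1 in granulosa-like cells kept their direction but missed the limit under some settings. Weighting clusters equally could not be run for theca-like cells, which are 1 cluster.

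The member medians of granulosa-like, stroma-like and theca-like cells kept to their interval in 104 of the computed cases and left it in 12. In granulosa-like cells, with clusters weighted equally, the medians were 0.068 for doxorubicin over control, 0.038 for doxorubicin+AMH over AMH, 0.12 for AMH over control and 0.10 for doxorubicin+AMH over doxorubicin, against 0.03, 0.06, 0.03 and 0.04. For doxorubicin+AMH over AMH the median was 0.047 with median-of-ratios scaling, 0.047 with doublets left in and 0.080 with a marker gate. For AMH over control it was 0.093 with median-of-ratios scaling, 0.051 with a filter of 5 CPM and 0.049 with cells from 500 UMIs. In stroma-like cells it was 0.061 for AMH over control with median-of-ratios scaling, against -0.02, and -0.071 for doxorubicin+AMH over doxorubicin with each cell weighted equally, against -0.02. The causes were not tested. Depth limits the smaller classes most, where some members rest on under 100 UMIs.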
